A study of Cervus nippon with 40 samples.

Results

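Antler is the bony head appendage of male deer, which is shed and regrown in a yearly cycle. Its miRNA profile was described from the 4 antler libraries among the 40 small RNA libraries of Sika Deer (Cervus nippon). These 4 were chosen by their organ label, and the remaining 36 came from 9 other organs with 4 libraries each, namely brain and adrenal, testes, kidney, spleen, liver and lung, heart and muscle. In each organ, 1 library stood for stage 1 (juvenile, 1 year), 1 for stage 2 (adolescence, 3 years), 1 for stage 3 (adult, 5 years) and 1 for stage 4 (aged, 10 years). All deer were untreated males of the Shuangyang breed, with no genotype given. Each library pooled RNA from 3 deer, and the 10 organ libraries of a stage came from the same 3 deer. The part of the antler that was sampled and its phase of growth are not given in the sources used here. With 1 library per stage, the spread between deer of 1 age was not measured, so the p-values below rest on the spread between libraries of different stages. Names were restricted to known bovine miRNAs in miRBase, which start with bta- in the tables. That prefix is left out here.

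miRNAs are short RNAs that pair with messenger RNAs and lower their translation or stability. Several are strongly tied to a tissue. The miR-199a and miR-214 genes lie together on an RNA transcribed from the opposite strand of the dynamin 3 gene, and they are known from mesenchyme and the developing skeleton. miR-3120 comes from the other strand of the miR-214 gene. miR-140 is a miRNA of cartilage, made from an intron of WWP2. Antler grows by forming cartilage that is turned into bone under a skin called velvet, so miRNAs of muscle, nerve, blood and epithelium were also listed and examined.

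The antler libraries held 214726, 214165, 674539 and 722160 miRNA reads at stages 1 to 4, against 41866 to 7759033 in the other libraries. Levels are given as RPM, the reads of a miRNA per 1000000 miRNA reads of its library. A single read stood for 4.66 and 4.67 RPM in the juvenile and adolescent antler and for 1.48 and 1.38 RPM in the adult and aged antler, so depth moved with stage. The number of known names listed was 137, 141, 161 and 173. At an equal depth of 214165 reads, 136.9, 141, 125.9 and 137.2 names would be expected, so the counts of the older antler were not higher at an equal depth. In all, 208 known names had a read in antler, of 336 in the series, and 113 of them had a read at every stage. RPM is a share of the library, so fewer cells of a type and less of a miRNA per cell cannot be told apart.

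The antler profile was led by miR-199a. miR-199a-3p, from the 3′ arm of the hairpin, stood at 244470, 228067, 287926 and 251984 RPM at stages 1 to 4. That was 25.3% ± 2.53 of the miRNA reads (SD, n = 4), and it ranked first in every antler library. miR-199a-5p, from the 5′ arm, stood at 182055, 176504, 182587 and 112482 RPM and was the most abundant name after miR-199a-3p and its second name. Its level was alike at the first 3 stages and lower at stage 4. The counting error of these shares was small, with 95% exact binomial intervals of 24.3% to 24.6% for miR-199a-3p and 18.04% to 18.4% for miR-199a-5p in the juvenile library. Such intervals cover counting error only.

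Several reads were listed under 2 names. miR-3604 held nearly the same reads as miR-199a-3p (477369 and 477528 reads in antler), miR-3596 the same as let-7b, and miR-26c nearly the same as miR-26a. With the 7 such pairs counted once, miR-199a-3p made up 38.9% ± 4.68 and miR-199a-5p 24.97% ± 4.62 of the antler reads. Next came let-7b, of a family that represses growth genes, with 11.9% ± 2.40. miR-378, miR-26a, miR-145 and miR-7 followed with means between 2.11% and 3.12%, and miR-199c had 1.83% ± 1.10.

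Below miR-199a, the order of the names was less fixed. let-7b stood at 71775, 81353, 61455 and 93409 RPM and held the same rank at all 4 stages. miR-378, which lies in an intron of PPARGC1B, stood at 24985, 25051, 16340 and 15443 RPM. miR-145, known from smooth muscle, stood at 20356, 10072, 15821 and 17646 RPM. The values of miR-378 and miR-145 overlapped. miR-26a was the least steady of the leading names, with 7498, 19247, 4424 and 31968 RPM, and it ranked 12, 8, 15 and 6. miR-7, known from endocrine and nerve cells, stood at 23546, 17823, 8627 and 5935 RPM, and both younger libraries lay above both older ones. The list of the 15 highest names was completed by miR-199c, miR-214, miR-1, miR-30c and let-7c.

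**Figure D1:**
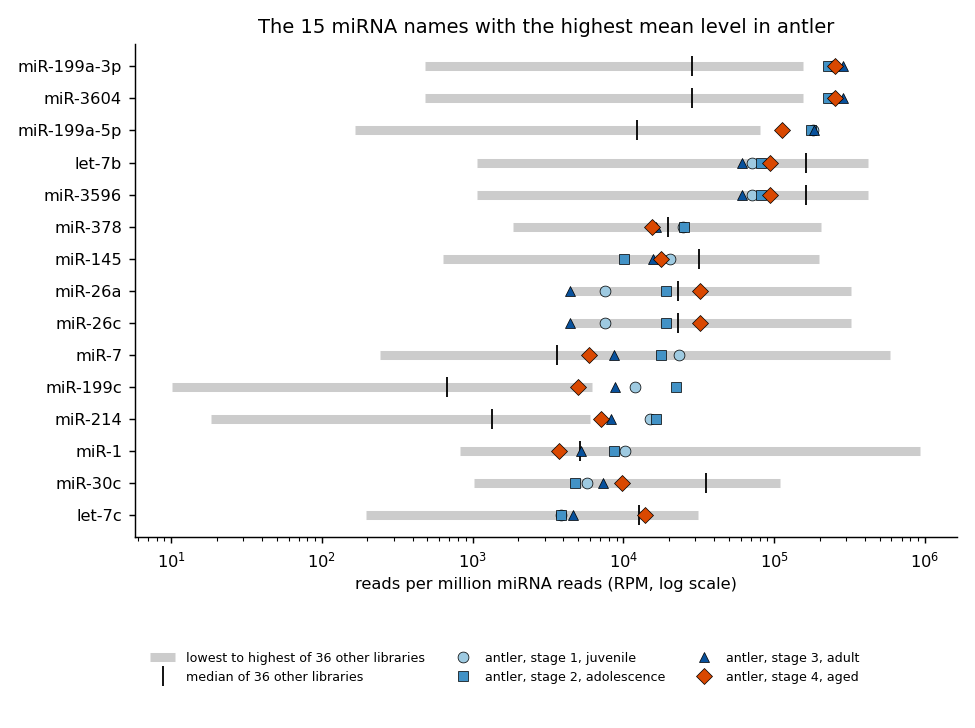
RPM on a log axis of the 15 names with the highest mean in antler, 1 marker per antler library, over the range (grey bar) and the median (tick) of the 36 other libraries. The miR-199a-3p, miR-3604, miR-199a-5p and miR-214 markers lie above every other library, while let-7b, miR-145 and miR-30c lie within the grey range, and miR-30c at most at 9757 RPM against a median of 35289.

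How far the reads were gathered in a few names was compared with other organs. The 10 most abundant names held 91.6% ± 1.69 of the antler reads (SD, n = 4), and 88.1% on average in the other organs. The difference of 3.44 percentage points had p = 0.3385 in a two-sided exact permutation test of the organ label within stages, over 10000 arrangements. With near-identical names counted once it was 1.96 points (p = 0.528, exact permutation test), and it was 7.20 points for the 5 and 0.738 points for the 20 most abundant names. Muscle, where miR-1 alone is most of the library, had the highest mean with 99.1%, and liver the lowest with 80.6%. In antler, 10, 11, 7 and 9 names made up 90% of the reads at stages 1 to 4.

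The question of which miRNAs set antler apart was put to 126 names with at least 10 reads in at least 4 of the 40 libraries. Antler was compared with the mean of the other 9 organs on log2(RPM + 1), with limma and with stage as a block, after TMM scaling, which sets most names of the libraries on a par. The TMM factors lay between 0.828 and 1.31 in antler but between 0.0291 and 0.0746 in muscle, whose reads are mostly miR-1, so the fit raised the other names of muscle far above their RPM. A name was called at an adjusted p (Benjamini-Hochberg) below 0.01 and an absolute log2 difference above 1. Of the 126 names, 51 (40.5%) were called, 21 higher in antler (16.7%) and 30 lower (23.8%). Among the 51, 3 were second names of another entry (2 higher and 1 lower). With near-identical names counted once, 17 were higher and 31 lower. The median log2 difference of all tested names was -0.26, and the split moved with the scaling and the tool. With the size factors of DESeq2, which put that median at 0.0038, 25 names were higher and 23 lower, and with no minimum of reads 30 were higher and 24 lower. On recovered reads, edgeR called 23 higher and 15 lower and DESeq2 26 higher and 18 lower. Leaving out 1 antler library or all libraries of 1 stage lowered the number of calls to between 26 and 41, with 12 to 15 higher and 14 to 27 lower. It was 30 without antler of stage 2, 30 without antler of stage 3, 34 without antler of stage 4, 31 without all libraries of stage 1 and 26 without those of stage 3. Of the called names, 20 of 21 were higher and 27 of 30 were lower at all 4 stages. They were called on their mean over these same stages, so these counts are no separate support. Of the 126 names, 4 passed the minimum of reads only through antler (miR-2285ce, miR-2285bn, miR-148a and miR-15a), and without the antler-only names 19 were higher. Another 30 had under 10 reads in every antler library, and 4 of these had no antler read.

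After a pair of names found in antler alone, the largest differences were those of miR-199c and miR-199a-5p, of the miR-199 and miR-214 group. miR-2285l (4.16) came between these and the rest of the group. All 6 of the 6 tested names of the miR-199 and miR-214 group were higher in antler, against 16.7% of all tested names. They stand for 5 distinct miRNAs, since miR-3604 is the second name of miR-199a-3p. The list was chosen with earlier results of these data known, so this count is no separate support. The median log2 difference was 3.96, that of miR-199a-3p, with or without the second name, and -0.26 over all names. miR-199b, with reads in 2 libraries only, was not tested. miR-199c differed by 4.79 (SE 0.38), miR-199a-5p by 4.63 (SE 0.31), miR-199a-3p by 3.96 (SE 0.33), miR-3120 by 3.78 (SE 0.30) and miR-214 by 3.55 (SE 0.49), with adjusted p between 4.1e-14 and 3.1e-07 (limma). In RPM, these were 12.3, 10.8, 7.97, 7.60 and 5.37 times the mean of the other organs. Counted once, the group took up 67.7%, 66.7%, 75.9% and 61.3% of the antler reads at stages 1 to 4. In the other 36 libraries it took 0.141% to 38.5%, with a median of 6.29%.

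By mean RPM, testes came nearest to antler for the miR-199 names and miR-3120 and liver for miR-214, and brain and muscle were the farthest. miR-199a-3p stood at 154476, 88545, 61143 and 56991 RPM in testes, with a mean of 90289 ± 45023 (SD, n = 4) against 253112 ± 25266 in antler, and the libraries did not overlap. Liver followed with 55685 ± 7437 and kidney with 44177 ± 12239, and these 2 overlapped. Muscle had 1522 ± 429 and brain 1191 ± 647. miR-199a-5p had the same organ at the top, with 80193, 69864, 28706 and 48273 RPM in testes, and the highest of these lay below the lowest antler value of 112482.

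The markers miR-199c and miR-3120 were highest in antler by mean RPM as well. Both were chosen with earlier results of these data known, so their rank is no separate support. miR-199c, which is close to miR-199a-5p in sequence, stood at 11950, 22459, 8805 and 4967 RPM in antler and at 6153, 2975, 1948 and 1553 in testes. The aged antler library thus lay below the juvenile testes library. miR-3120 stood at 2655, 2311, 1613 and 3670 RPM in antler and at no more than 1147 RPM in any other library. miR-214, of the same gene as miR-3120 on the other strand, stood at 15075, 16469, 8220 and 7088 RPM in antler. The highest value elsewhere was 6043 RPM in the aged testes.

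**Figure D2:**
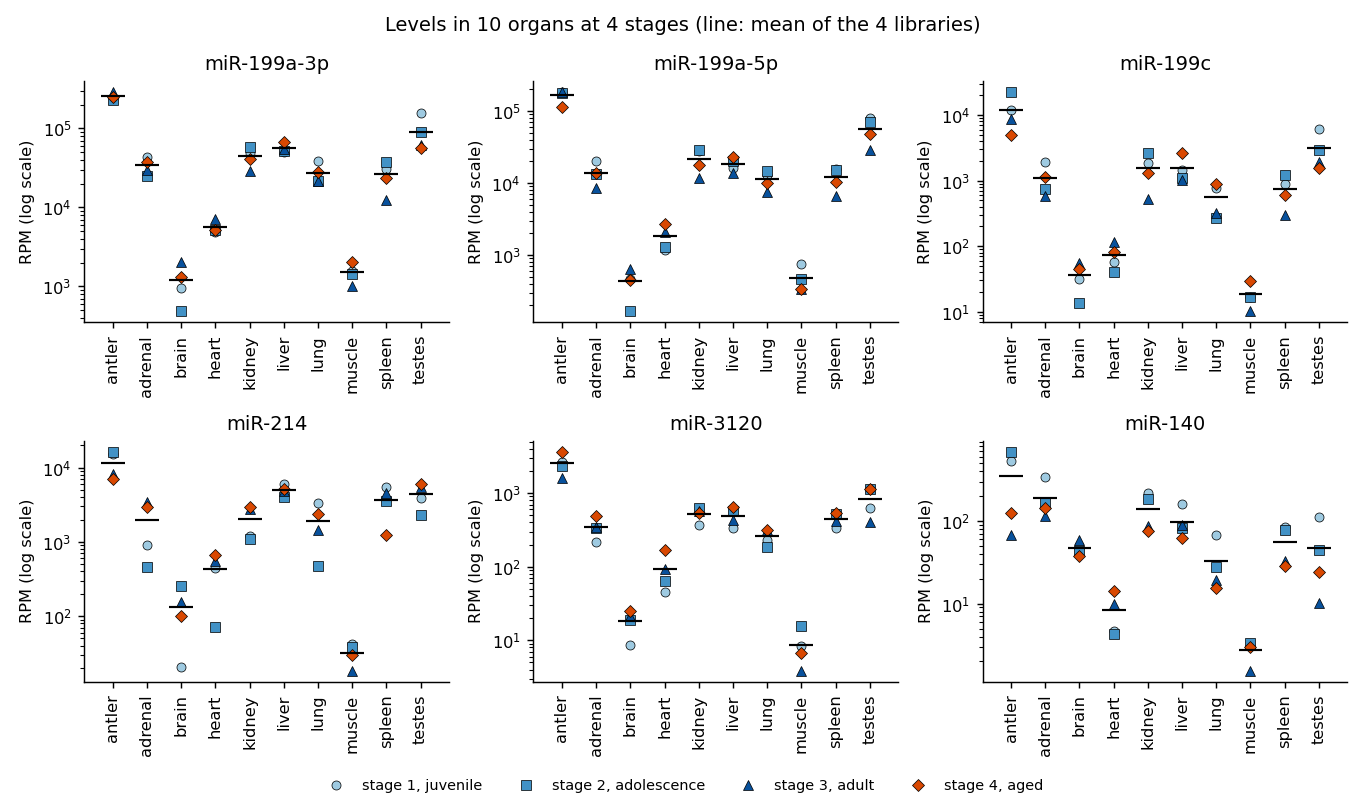
RPM on log axes of 6 names in 10 organs, 1 marker per library and a line at the mean of the 4 libraries. Antler has the highest mean in all 6 panels, testes comes next for miR-199a-3p, miR-199a-5p, miR-199c and miR-3120, and the miR-140 markers of the adult and aged antler (68.2 and 123 RPM) lie below the juvenile adrenal marker (338 RPM).

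A stricter question was whether antler lay above each of the other 9 organs. The largest one-sided p of the 9 contrasts was used for each name and adjusted over the 126 names, with a call at 0.01. By this test 7 names were called (5.56%). Of these, miR-2285ce and miR-2285bn met the minimum of reads through antler alone, so their place was fixed by that minimum, and miR-3604 is a second name of miR-199a-3p. The other 4 were miR-199a-5p, miR-3120, miR-199a-3p and miR-199c. The smallest log2 difference to any organ was 2.98 for miR-199a-5p and 3.31 for miR-199c (both against testes), 2.91 for miR-3120 (spleen) and 2.82 for miR-199a-3p (muscle, which in RPM was among the farthest). Scaled to total reads, 6 of the 7 were called as well. miR-214 and miR-140 were not called, with adjusted p (limma) of 0.0188 and 0.0442, and their nearest organs were liver and adrenal. In raw RPM, 7 names had every antler library above all 36 others (5.56%), with miR-214 in place of miR-199c and with the same 3 reservations. No name was called below every organ, although 6 had an unadjusted p under 0.05 (limma) (miR-29a, miR-30f, miR-30c, miR-30a-5p, miR-2285o and miR-7859). In RPM also, 0 names had every antler library below all others.

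The names miR-2285ce and miR-2285bn differ from the rest in how they were listed. Both had reads in antler alone, 52, 28, 80 and 121 for miR-2285ce and 14, 13, 32 and 43 for miR-2285bn, and no other library listed them. They were among 31 known names found in antler only, with 690 reads together, of which 27 were suffixes of miR-2285, a ruminant family with very many near-identical members. Antler libraries listed 26 to 36 names of the miR-2284 and miR-2285 families, and other libraries 6 to 27. The reads of these families made up 0.477% to 0.674% of the antler libraries and 0.0177% to 2.83% of the others. Antler also listed miR-148c with 167 reads in the place of miR-2957, which had 721 reads in the other organs, and it was counted as miR-2957. Whether the antler tables were made with another list of names was not tested. The fitted log2 differences of 7.21 and 5.77 depend on the added 1 RPM and are no bound, and with DESeq2 their adjusted p were 0.0795 and 0.153. miR-2285l, with 908, 798, 265 and 150 RPM in antler, was called higher by 4.16 (SE 0.56), but liver had more, with 1485 to 3055 RPM.

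miR-140, the cartilage miRNA, was higher in antler by 2.57 on the log2 scale (SE 0.34, adjusted p = 1.3e-07, limma). It stood at 536, 691, 68.2 and 123 RPM at stages 1 to 4, from 115, 148, 46 and 89 reads. The younger libraries lay above all other organs, whose highest value was 338 RPM in the juvenile adrenal, and the older ones did not. The rest of the cartilage and bone list was scarce. Of its 9 listed names 3 were tested, and miR-29a and miR-29d-3p, which act on collagen genes, were lower in antler. miR-29a had 0, 0, 3 and 5 antler reads and differed by -3.18 (SE 0.53). miR-29d-3p had no antler read, against reads in 29 other libraries. miR-455-3p and miR-335 had 1 antler read each, and miR-29b, miR-29c, miR-204 and miR-211 had none. Of the other libraries, miR-455-3p had reads in 23 and miR-29c in 24. Neither met the minimum of reads, so whether they were lower in antler was not tested. In contrast, miR-335 had reads in 3 of them and miR-29b, miR-204 and miR-211 in 1 each, so their absence is not particular to antler.

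Of the 21 names higher in antler, 11 had their highest organ mean in antler and 17 had antler among the first 2 organs. Among the 11, miR-2285ce, miR-2285bn and miR-148a met the minimum of reads only through antler, and miR-3604 is a second name of miR-199a-3p. The rank of these names adds no support. miR-671 stood at 121, 145, 44.5 and 48.5 RPM and was second to brain. miR-17-5p, of a cluster that favours cell division, stood at 3325, 3932, 1783 and 955 RPM and was second to testes, with a log2 difference of 1.72 (SE 0.48, adjusted p = 0.0040, limma). miR-152, of the same seed family as miR-148a, had a mean of 102 RPM and was second to kidney. miR-2957, called higher as well, held the same reads as miR-152. miR-148a itself had 44 antler reads (7, 1, 8 and 28). It met the minimum of reads only through antler, so its call is no support, and it was higher at 3 of the 4 stages. miR-708 had 40.3 RPM in antler against 38.3 in adrenal, and its values in these organs overlapped. miR-1260b, miR-452 and miR-3432a had higher means in testes, in kidney and in lung.

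The miR-424 and miR-503 cluster, whose members slow the cell cycle, shows how the scale of the test matters. Both of its tested names, miR-424-5p and miR-450b, were called higher in antler, against 16.7% of all tested names. The differences were 2.52 (SE 0.71) and 2.16 (SE 0.59). miR-450b had only 4, 1, 5 and 5 antler reads, and its mean of 9.41 RPM was below the 10.4 RPM of the other organs. miR-424-5p stood at 55.9, 65.4, 34.1 and 19.4 RPM in antler. Its mean of 43.7 RPM is 0.201 times the mean of the other organs, because testes held 191 to 4352 RPM and lung, heart and liver nearly none. Antler was the fourth organ for both names. The call for miR-424-5p was lost in 9 alternatives, among them leaving out antler stage 2 (adjusted p = 0.0194), antler stage 3 (0.0369), heart (0.0137) or lung (0.0145), and without the stage block (0.0115), all by limma.

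**Figure D3:**
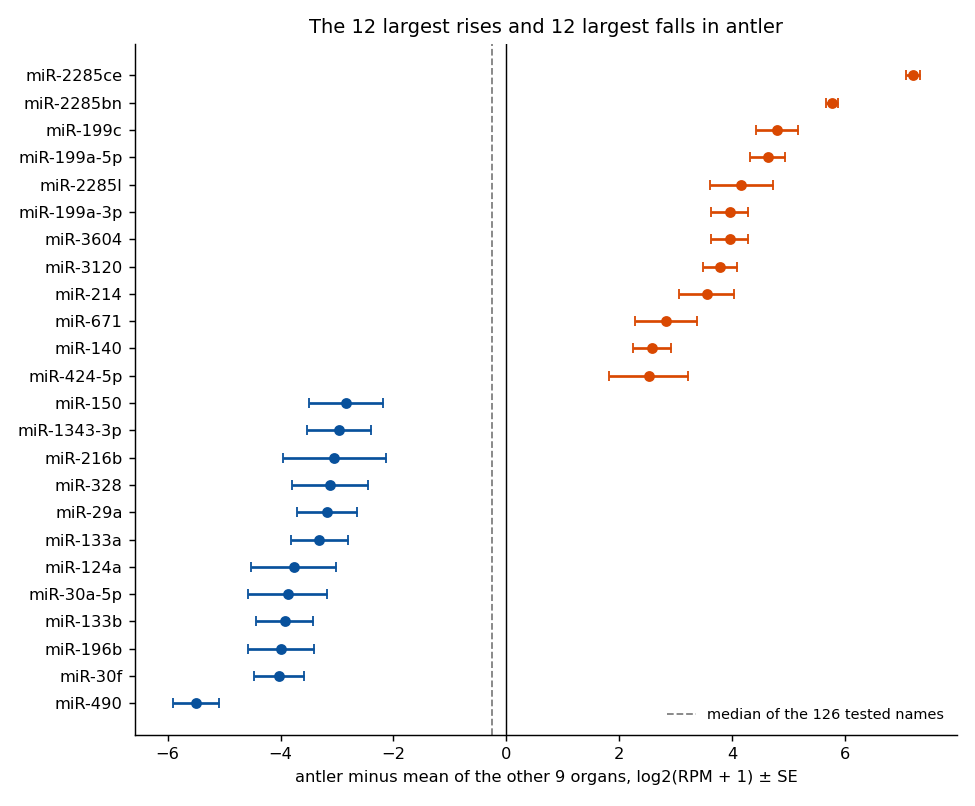
Difference between antler and the mean of the other 9 organs on log2(RPM + 1), with the standard error, for the 12 largest rises (orange) and the 12 largest falls (blue). The rises reach from 2.52 (miR-424-5p) to 7.21 (miR-2285ce) and the falls from -2.84 (miR-150) to -5.50 (miR-490), and the dashed line marks the median of all 126 tested names at -0.26.

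Among the names lower in antler, the miR-30 family, known from kidney and other epithelia, included abundant members. Of its 4 tested names 3 were called lower, against 23.8% of all tested names, with a median log2 difference of -2.96 against -0.26. miR-30f stood at 228, 187, 636 and 946 RPM in antler and at a mean of 16168 RPM in the other organs (log2 difference -4.02, SE 0.44, adjusted p = 3.9e-09, limma). miR-30c stood at 5691, 4800, 7264 and 9757 RPM, against means from 22262 RPM in lung to 98143 RPM in kidney outside muscle. miR-30a-5p had 0, 2, 8 and 50 reads in antler and a difference of -3.87 (SE 0.70). The fourth name, miR-30b-5p, was not called (-1.42, SE 0.64, adjusted p = 0.0603, limma). Muscle had less miR-30c and miR-30f than antler, with means of 1567 and 48.0 RPM.

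The largest fall was that of miR-490, which lies in an intron of the muscarinic receptor gene CHRM2. It had 0, 0, 2 and 1 reads in antler, against means of 988 RPM in brain and 960 RPM in heart, and muscle had none. The difference of -5.50 (SE 0.41) was past the threshold with limma but not with edgeR (adjusted p = 1). miR-196a and miR-196b, which lie in the Hox clusters and follow position along the body axis, were both lower. They had 4 reads and 1 read in antler, against a mean of 1112 and 3411 RPM in kidney and 63.1 and 46.4 RPM in muscle. Both were low in most organs. The median of the other organs at stages 1 to 4 was 1.72, 8.14, 5.21 and 4.29 RPM for miR-196a. For miR-196b it was 7.65, 9.35, 12.1 and 16.8 RPM. The summed share of the Hox list, which also holds miR-10a and miR-10b, had a mean of 0.000623% in antler and 0.000436% in heart, the only organ below antler. miR-328 (2 reads) and miR-216b (1 read) were also near the limit of detection in antler. The call of miR-216b was lost without antler of stage 1 (adjusted p = 0.0168), of stage 3 (0.0260) or of stage 4 (0.0206), and that of miR-328 without all libraries of stage 3 (0.0150), by limma. For such names the size of the fitted difference depends on the added 1 RPM, and 13 of the 30 lower names had under 10 reads in every antler library.

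Other names were lower at higher read numbers. miR-1343-3p was among the scarcer of them, with 10, 8, 9 and 26 antler reads, or 13.3 to 46.6 RPM, and it stood at 3624 RPM on average in brain. miR-197 had 286 RPM in antler and between 742 and 8459 RPM in the other organs except muscle, with 27.3. miR-339a had 1436 RPM in antler and 23817 RPM in liver. let-7d was the only let-7 name of 7 tested that was called, with 72.9 RPM against a mean of 245 RPM. The 7 include miR-3596, the second name of let-7b. Over all tested names 23.8% were called lower and 16.7% higher. Of the 30 lower names, 8 had at least 10 reads in all 4 antler libraries, and 6 had their lowest organ mean in antler.

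The label of the libraries was checked with miRNAs of other tissues. Those of striated muscle were far below heart and muscle, and their summed share was not below that of most other organs. miR-133a had 363, 434, 172 and 90.01 RPM, the lowest mean of all organs, against 137578 RPM in heart. By the test, which includes heart and muscle, 4 of the 5 tested names were called lower, against 23.8% of all tested names. The 4 were miR-133a, miR-133b, miR-133c and miR-208b. Without heart and muscle the difference of miR-133a was -1.48 and was not called (adjusted p = 0.0177, limma). miR-1 was not called (log2 difference -1.001, SE 0.62, adjusted p = 0.176, limma), with 10260, 8662, 5202 and 3717 RPM in antler, near its means of 6837 RPM in kidney and 5093 RPM in liver. The summed share of the muscle list was 0.615% to 1.58% in antler, with a mean of 1.10%. Its mean was 95.03% in muscle, 64.7% in heart, 3.02% in spleen, 0.973% in kidney, 0.941% in liver and 0.405% in lung. miR-206, miR-208a, miR-208b and miR-499 had no antler read, and they had reads in only 4, 4, 8 and 2 of the other libraries.

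Nerve and epithelium names had almost no reads, and the liver and gut list lay within the range of other organs. The defining nerve miRNA, miR-124a, had no read among the 1825590 antler reads, which allows up to 1.64 RPM over the 4 libraries, and the mean of the other organs was at least 2198-fold higher, most of it from brain. None of the 7 listed nerve names had an antler read. miR-124a had reads in 30 other libraries, and the rest of these names in only 3 to 7. Of the liver and gut list, miR-192 had 3196 RPM in antler, the fifth organ by mean, and was not called. From the same list, miR-194 had no antler read and had reads in only 5 other libraries. The list took up 0.437% to 0.586% of the antler reads, against means of 21.99% in liver, 20.7% in kidney, 0.411% in spleen and 0.265% in lung. Of the epithelium and skin list, which a sample with velvet could hold, only miR-205 had a read, 1 each at stages 3 and 4. No other organ listed miR-205. miR-200b, miR-429 and miR-31 had no antler read, and they had reads in only 13, 2 and 2 of the other libraries.

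Blood and vessel names were present at levels within the range of the other organs. The blood list summed to 0.244% to 0.620% of the antler reads, against 0.0729% to 4.58% elsewhere. miR-486, of red cells and muscle, had 3209, 1527, 1606 and 3699 RPM and was not called. miR-142-5p, of all blood lineages, had 124 ± 19.2 RPM (SD, n = 4) and an adjusted p of 0.0318 (limma) for a log2 difference of 2.52. miR-150, of mature lymphocytes, was called lower, with 0, 0, 1 and 10 reads, but not without antler of stage 2 (adjusted p = 0.0127, limma). miR-145 was not called (-0.69, SE 0.27, adjusted p = 0.0318, limma), miR-126-3p of endothelium had 18 reads, and miR-210 of hypoxia had none. Only 1 of the other libraries had a read of miR-210, so its absence is not particular to antler.

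Clusters linked to growth or imprinting had few calls. Of 8 tested names of the DLK1-DIO3 cluster, a large imprinted miRNA cluster, 1 was lower (miR-412, with no antler read) and 7 were not called, while 23.8% of all tested names were lower and 16.7% higher. The summed share of the cluster was 0.151% to 0.598% in antler, and adrenal had 4.83% to 13.4%. Of 2 tested names of the miR-17 clusters, miR-17-5p was higher and miR-106a was not called. None of the tested names of the miR-26 family (2), the miR-378 family (4) or the miR-23/27/24 list (1) was called. The sums of the let-7 list were 10.6% to 18.4% in antler and 0.142% to 75.1% elsewhere, with a median of 25.04%.

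**Figure D4:**
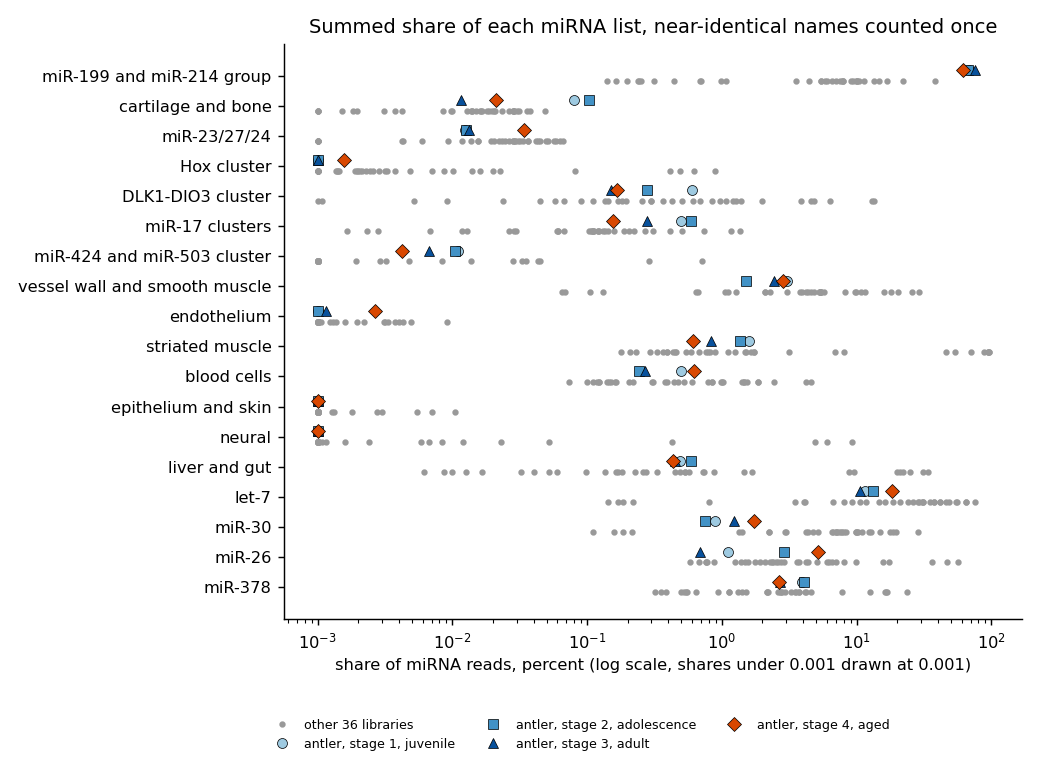
Share of miRNA reads on a log axis for 18 miRNA lists, with 1 coloured marker per antler library above 1 grey point per other library and near-identical names counted once. The 4 antler markers of the miR-199 and miR-214 group (61.3% to 75.9%) lie above all grey points (at most 38.5%), and those of the striated muscle list (0.615% to 1.58%) and of the liver and gut list (0.437% to 0.586%) lie within the grey points.

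As whole profiles, antler libraries were more like each other than like those of other organs. Over the 126 names the mean Pearson r on log2(RPM + 1) was 0.958 for the 6 pairs of antler libraries, the lowest being 0.933 for stages 2 and 4. Of the 126 names, 4 passed the minimum of reads only through antler. Among these, miR-2285ce and miR-2285bn had no read elsewhere, which favours pairs within antler. The r within other organs is not given, so the likeness within antler is not shown to be particular to it. The mean r over 16 pairs of libraries was 0.848 with lung, 0.846 with spleen, 0.837 with testes and 0.832 with liver. It was 0.813 with adrenal, 0.795 with kidney, 0.739 with heart, 0.729 with muscle and 0.637 with brain. Lung, spleen, testes and liver did not differ beyond their ranges, and all these libraries share the set of names and the unequal depths. Testes, with the next highest means of the miR-199 names, was thus not set apart from these organs in the profile at large.

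The arms of miR-199a and its neighbours gave a further description. The ratio of miR-199a-3p to miR-199a-5p reads was 1.34, 1.29, 1.58 and 2.24 in antler, the aged library being the highest. Testes had 1.18 to 2.13, and the medians of the other 8 organs lay between 2.12 (spleen) and 3.66 (heart). The ratio of miR-199a-5p to miR-199c had a median of 17.99 in antler and of 11.8 to 30.3 in the other organs. The ratio of miR-214 to miR-3120 had a median of 5.39 in antler, within the medians of 4.08 to 9.60 elsewhere.

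The course over the 4 stages was examined next. A straight line over stages was fitted for each organ with limma, and the slope of antler was tested over the 126 names. Only miR-30a-5p was called (0.794%), with a slope of 1.94 log2 units per stage (SE 0.37, adjusted p = 0.0024), and 14 names had an unadjusted p under 0.05, 10 upward and 4 downward. Its antler values were 0, 9.34, 11.9 and 69.2 RPM. This call rests on 60 reads, and it was lost without the juvenile antler library (adjusted p = 0.173) or the aged one (0.419), by limma. With edgeR its adjusted p was 0.0348 and 0 names were called. Relative to the stages of the other organs, the extra slope of antler was called for miR-30a-5p alone (0.794%), at 2.28 per stage (SE 0.48, adjusted p = 0.0064, limma), and 14 names had an unadjusted p under 0.05. This call too was lost without the aged antler library, and also without adrenal, kidney, lung or muscle. The median of miR-30a-5p in the other organs was 198, 179, 105 and 136 RPM, and its gap to antler was smallest at stage 4.

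Names with the next smallest p are given as values. In the upward direction they were miR-7859 (slope 1.395, SE 0.37), miR-342 (1.43, SE 0.39) and miR-1468 (1.52, SE 0.42), with an adjusted p of 0.0399 each (limma), and miR-30f (0.97, SE 0.33). miR-342, which lies in an intron of EVL and is known from lymphoid cells, had 18.6, 9.34, 91.9 and 170 RPM. In the downward direction they were miR-541 (-0.91, SE 0.28), miR-677 (-0.91, SE 0.37), miR-140 (-0.78, SE 0.32), miR-409a (-0.65, SE 0.27) and miR-134 (-0.84, SE 0.44). Their adjusted p lay between 0.0929 and 0.553 (limma). Several of the slopes in both directions rest on few reads. At stages 1 to 4, miR-7859 had 0, 0, 2 and 10 antler reads and miR-1468 had 0, 0, 1 and 16. miR-541 had 2, 0, 0 and 0 reads and miR-134 had 1, 4, 2 and 0. The antler libraries of stages 3 and 4 were also deeper, and the part of depth in these slopes was not tested. miR-677 had 154, 154, 34.1 and 19.4 RPM. For miR-140, the medians of the other organs were 84.7, 44.6, 33.1 and 28.7 RPM, and the extra slope of antler was -0.32 (SE 0.29).

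Between adjacent stages, with 1 library each, few names moved by 2-fold from juvenile to adolescence and more did at the later steps. A step was called up at a ratio of at least 2 and down at 0.5 or less, for names with at least 10 reads in 1 of the 2 libraries. From stage 1 to 2, 4 of 77 names were up (5.19%) and 5 were down (6.49%). From stage 2 to 3, 4 of 85 were up (4.71%) and 27 were down (31.8%). From stage 3 to 4, 33 of 101 were up (32.7%) and 1 was down (0.99%). The median ratio was 1.003, 0.746 and 1.48 over these 3 steps, so that the later counts went with a common shift of the names. The correlation of the whole profile was 0.972 for stages 1 and 2, 0.961 for stages 2 and 3 and 0.973 for stages 3 and 4, the most alike pair. Across the whole course, from stage 1 to 4, 14 of 99 were up (14.1%) and 23 down (23.2%). The share of the miR-199 and miR-214 group was highest at stage 3, although miR-199c and miR-214 were down from stage 2 to 3 (ratios 0.392 and 0.499). RPM values of a library sum to a fixed total, and the part of this share in the steps was not tested. Depth changed between stages 2 and 3 as well, and its part in these steps was not tested.

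The order of steps was followed for 102 names with at least 10 reads in an antler library, with fewer than 3 reads set to 3. Of these, 43 stayed within the limits throughout. Next came 18 that went down only from stage 2 to 3, among them miR-199c, miR-7, miR-214 and miR-17-5p. Another 14 went up only from stage 3 to 4, among them let-7c, let-7a-5p and miR-3120. miR-26a was up, down and up again, with ratios of 2.57 (95% interval 2.42 to 2.72), 0.230 (0.219 to 0.241) and 7.23 (6.96 to 7.51). let-7c went from 3107 to 10084 reads between stages 3 and 4, a ratio of 3.03 (2.91 to 3.16). These exact intervals cover the counting of reads and not the differences between deer.

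The 2 younger and the 2 older antler libraries were also set side by side for the 50 names with at least 100 reads in any of them, a description chosen after the values had been seen. In RPM without TMM, both older libraries were below both younger ones for 16 names (32%) and above them for 8 (16%), and 26 overlapped. The TMM factors of antler were 1.28, 1.31, 0.828 and 0.980 at stages 1 to 4. Dividing by them lowers the younger values against the older ones, so the split into 16 and 8 depends on the scale. miR-140 went from a mean of 613 to 95.7 RPM, miR-7 from 20684 to 7281, miR-17-5p from 3628 to 1369, miR-199c from 17205 to 6886 and miR-214 from 15772 to 7654. In the other direction, miR-342 went from 14.0 to 131 RPM, miR-30f from 207 to 791, let-7c from 3847 to 9285 and miR-30c from 5246 to 8511. miR-199a-3p went from 236268 to 269955 RPM, while miR-199a-5p overlapped. None of the names given in this comparison passed the test of the antler slope over all 40 libraries. In a fit of the 4 antler libraries alone, over 69 names, the slope of miR-140 was called (-0.94, adjusted p = 0.0045, limma), as was that of miR-677 (-1.07, adjusted p = 0.00011, limma).

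**Figure D5:**
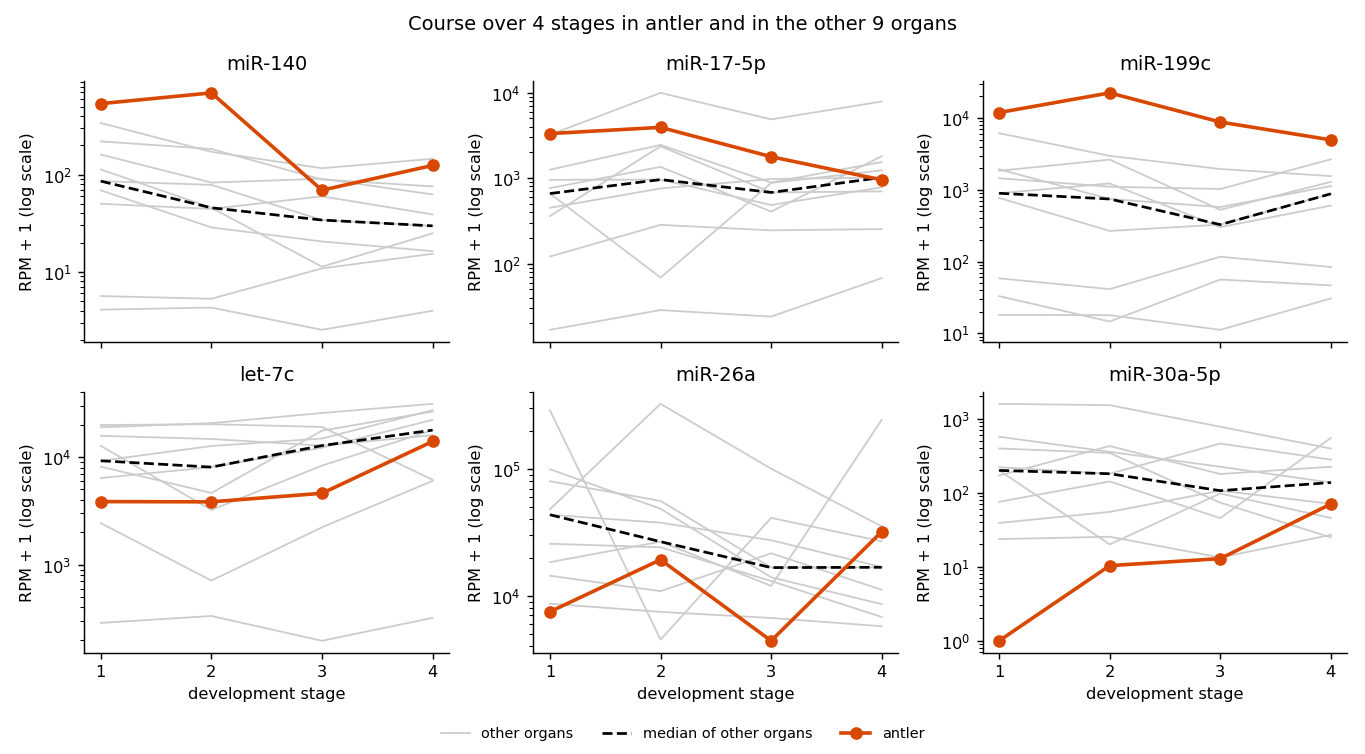
RPM + 1 on log axes at stages 1 to 4 for 6 names, with antler in orange, each other organ in grey and their median dashed. Antler miR-140 starts above all organs (536 RPM) and ends among them (123 RPM), let-7c moves from 4606 to 13964 RPM at the last step, miR-26a changes direction at every step, and miR-30a-5p climbs from 0 to 69.2 RPM.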

How the data were processed

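Small RNA libraries had been made from pooled TRIzol RNA of 3 deer and read on a HiSeq 2500 (50 bases, single end). The labels name a NEBNext kit and the study's methods a TruSeq kit for the libraries. The authors trimmed the reads, set aside other RNA classes, matched the rest to miRBase 22.0, predicted further miRNAs with miRDeep 2.0.5, and deposited 1 table per library. The submitters' processing notes name Bowtie, CASAVA and bcl2fastq 1.8.4. The deposited values are RPM (the header says tpm, but lengths were not used), names without a read are not listed, and no column was left unused for lack of a sample. Divided by the value of 1 read, all 7982 listed values came out whole to a tolerance of 0.01, which gave back the reads.

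Only names starting with bta- were tested. Reads were scaled by TMM (edgeR 4.0.16), and log2(RPM + 1) was fitted with limma 3.58.1 (trend) in R 4.3.3 over 40 libraries with organ and stage as terms. Names needed at least 10 reads in at least 4 libraries. Stage served as a block because libraries of a stage share their deer. Deviations of antler from its mean had an average r of 0.0761 with those of other organs at the same stage (36 pairs) and -0.0252 at other stages (108 pairs). Levels, shares and ratios in the text are RPM without TMM. Fits were tested on simulated data. Alternatives were total reads, DESeq2 1.42.0, edgeR, a pseudocount of 10 RPM, no minimum of reads, names as listed or counted once, and leaving out libraries, stages and organs. Pairs of names counted once differed by at most 2% of their reads. Python 3.11.15 with numpy 2.4.6, pandas 2.3.3 and scipy 1.17.1 was used elsewhere.

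Named miRNAs are the 15 highest in antler, the 12 largest rises and falls, those called above or below every organ, the 5 smallest p of the slope in each direction, 3 markers (miR-199c, miR-199a-5p, miR-3120), and up to 4 examples of each list. Others were named after their values were seen. Members and lists were chosen with earlier results of these data known. Depth ran from 41866 to 7759033 reads, and 10 reads in the juvenile antler stood for 46.6 RPM. Predicted, numbered miRNAs were not compared, as their numbers in antler are not those of other organs.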

Additional observations from a re-analysis of the deposited data

Results flagged for a closer look

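In 7 of the 41 named or leading miRNAs examined, 1 antler library stood apart from the other 3 by Dixon's 95% limit for 4 samples. Chance flags about 1 in 20 groups of values without ties, but the count of 7 cannot be set against that rate, since for 3 of the names the other libraries are all at 0 and any read passes the limit. Among names with many reads, miR-199a-5p was low in the aged library (112482 RPM against 176504 to 182587 RPM), and let-7c was high in it (13964 RPM against 3838 to 4606 RPM). In the aged library miR-150 had 13.8 RPM and miR-1468 had 22.2 RPM, against at most 1.48 RPM in the others. The 3 names at 0 elsewhere had 1 or 2 reads in a single library: miR-196b with 1.38 RPM (aged), miR-216b with 4.67 RPM (adolescence) and miR-541 with 9.31 RPM (juvenile). The aged library held 5 of these 7 values and was the deepest of the antler libraries, and the part of depth was not tested.

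The slope of miR-30a-5p in antler differed from that of the other organs by 2.28 log2 units per stage (adjusted p = 0.0064, limma). It was the only name of 126 for which this difference was called.

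The antler libraries also held 2397 reads of numbered, predicted miRNAs, which no comparison used. They came to 177 to 1560 reads per library, or 0.0672% to 0.216% of its miRNA reads.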

How the results depend on the processing

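Antler has 1 library per stage, and 30 of 126 tested names had under 10 reads in each of them, so small differences in scarce names cannot be seen. Of 51 names called against the other organs (21 higher, 30 lower), edgeR called 15 lower and DESeq2 18 lower, with 23 and 26 higher, and each shared 36 of the 51. With no replicate block 47 were called, 7 lay above every organ and 1 had an extra slope, and the call of miR-424-5p was lost. Leaving out 1 antler library or 1 stage gave 26 to 41 calls, 12 to 15 higher and 14 to 27 lower. The largest losses came without all libraries of stage 3 (26), without antler of stage 2 or of stage 3 (30 each) and without stage 1 (31). Names above every organ were 5 to 6 in these fits and 23 of 336 with no minimum of reads. Names below every organ were 0 in these fits and 2 without muscle, and also 2 without heart and muscle (an alternative added after the data were seen). The single slope call fell to 0 with total reads, a pseudocount of 10 RPM, edgeR, or without the juvenile or aged antler, and was 14 with no minimum of reads and 5 of 69 names with antler alone, where miR-140 and miR-677 gained a call. The single extra slope fell to 0 with total reads, DESeq2 size factors, a pseudocount of 10 RPM, edgeR, without antler of stage 4, and without adrenal, kidney, lung or muscle. It was 2 without heart, spleen or testes, 3 with near-identical names counted once or without the miR-2284 and miR-2285 names, and 16 with no minimum of reads. Adjacent steps of 2-fold or more numbered 74, and 35 with at least 100 reads. The share of miR-199a-3p was 25.3%, and 38.9% with near-identical names counted once. The top-10 difference of 3.44 points lay between 2.65 and 4.07 without each stage, and at 1.96 with near-identical names counted once. The cause of these changes was not tested. Of 24 single differences named, 16 kept their call under every alternative run for them and none changed sign. Calls were lost in some for miR-424-5p and miR-216b (9 each), miR-150 (5), and miR-133a, miR-328, miR-490, miR-2285ce and miR-2285bn (1 each).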

Other observations

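Some tested names not described above also had different levels in the younger and the older antler. miR-2898 had a mean of 3182 RPM in the younger and 863 RPM in the older antler libraries, and it was not called against the other organs (log2 difference 1.33, adjusted p = 0.120, limma). miR-1839 went from 800 to 2087 RPM and miR-664b from 121 to 356 RPM. These are values of 2 libraries on each side and were not tested as groups. Their antler slopes over stages were not called.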
